A study of Mus musculus with 12 samples.

Results

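The genes described here are 6 bone morphogenetic protein (BMP) ligands, *Bmp2*, *Bmp4*, *Bmp6*, *Bmp7*, *Bmp8a* and *Bmp8b*, and 4 secreted BMP antagonists, *Nog*, *Grem1*, *Chrd* and *Fst*. They were taken as a named list and not by a cut on their values, but earlier results of these data were known when the list was chosen. All 10 had a probe on a mouse expression array whose probes carried 20660 gene symbols in all. The study compared mice lacking LR11 (gene *Sorl1*), a sorting receptor with a soluble form, with wild-type (WT) littermates. Its subcutaneous white adipose tissue (scWAT) and brown adipose tissue (BAT) gave 4 groups of 3 arrays, one for each genotype in each depot. All mice were 12-week-old C57Bl6/J males on a high-fat diet with 60% of calories from fat; the labels mention 4 weeks of this diet and also a start at weaning, so its length is unclear. The Lr11-/- mice lack the gene in all tissues and not in fat alone. The labels do not say that the 3 arrays of a group came from separate animals, so p-values measure the spread between arrays, which may be technical.

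BMPs are secreted dimers of the transforming growth factor-β superfamily. They bind complexes of type I and type II serine/threonine kinase receptors, which phosphorylate Smad proteins that enter the nucleus with Smad4 and switch target genes such as the *Id* genes. Noggin, chordin and gremlin bind BMPs outside the cell and keep them from their receptors, while follistatin binds activins most tightly and some BMPs as well. In fat, BMP4 is known for committing precursor cells to the adipocyte lineage, BMP7 for promoting brown adipocyte formation, and BMP8b as a factor made by brown adipocytes that raises their response to noradrenaline.

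*Bmp8a* and *Bmp8b* lie on the same chromosome and code for closely related ligands, yet their probes behaved differently on these arrays, as did those of *Bmp6* and *Grem1*. The 250 bases upstream of the start of these 4 genes are given here because of that, from RefSeq on mouse build GRCm38.p6, read 5′ to 3′ on the strand of the gene. Capitals mark matches on either strand to AGGTCA (a nuclear receptor half-site), TGACG (a cAMP response half-site), GGCGCC (an element bound by Smads) or TATAAA (the core of many strong promoters). RefSeq sequence was at hand for 6 of the 10 genes; *Bmp2*, *Bmp7*, *Nog* and *Fst* are named only.
Bmp8b, chr4:123104911-123105160, plus strand: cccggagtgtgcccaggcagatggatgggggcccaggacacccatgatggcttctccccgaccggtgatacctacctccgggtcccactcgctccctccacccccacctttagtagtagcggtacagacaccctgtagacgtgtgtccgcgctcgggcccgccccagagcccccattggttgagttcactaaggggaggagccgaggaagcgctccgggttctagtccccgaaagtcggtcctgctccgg
Bmp8a, chr4:123343253-123343502, minus strand: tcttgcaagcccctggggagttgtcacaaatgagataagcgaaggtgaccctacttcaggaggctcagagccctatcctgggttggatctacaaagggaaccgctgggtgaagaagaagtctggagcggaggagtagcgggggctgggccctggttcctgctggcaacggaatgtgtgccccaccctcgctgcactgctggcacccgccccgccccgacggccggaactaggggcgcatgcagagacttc
Bmp6, chr13:38345466-38345715, plus strand: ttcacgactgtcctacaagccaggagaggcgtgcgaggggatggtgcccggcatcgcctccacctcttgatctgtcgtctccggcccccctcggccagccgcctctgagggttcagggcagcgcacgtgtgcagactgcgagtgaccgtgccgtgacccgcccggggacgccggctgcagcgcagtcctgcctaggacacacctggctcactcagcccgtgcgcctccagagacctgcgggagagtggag
Grem1, chr2:113758649-113758898, minus strand: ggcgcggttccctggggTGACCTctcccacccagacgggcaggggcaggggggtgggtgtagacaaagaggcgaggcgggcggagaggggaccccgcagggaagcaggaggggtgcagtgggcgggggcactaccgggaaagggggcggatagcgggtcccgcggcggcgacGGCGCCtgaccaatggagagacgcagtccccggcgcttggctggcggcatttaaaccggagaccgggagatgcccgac
The Bmp8b and Bmp8a windows shared little sequence. At the best offset without gaps, 77 of 243 overlapping bases were identical, and the longest identical run was 8 bases. Neither window, nor that of *Bmp6*, held any of the 4 motifs. The *Grem1* window held GGCGCC at position -78 and, on the other strand, AGGTCA at position -233, counted from the gene's start. Of the windows not printed, that of *Chrd* also held GGCGCC, at position -203, and that of *Bmp4* held none of the 4 motifs. Over the 32851 promoter windows of the same length, AGGTCA occurred in 14%, TGACG in 17.8%, GGCGCC in 9.59% and TATAAA in 12.4%. A match describes the letters and not a site in use. The probes' own sequences were not used here.

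Levels are given as the log2 of an array's processed intensity minus the log2 of that array's 75th percentile, so 0 is the brightness of a fairly bright probe and each unit is a doubling of intensity. These levels compare arrays for a probe and not one gene with another, because probes bind with different efficiency. Of 55681 probes 32121 were tested, those that some group of 3 arrays read well above background throughout. Of the 11 probes for these 10 genes, 9 were tested, covering 9 genes. *Bmp4* had a second probe, which was not well above background on any array (levels from -7.07 to -6.18) while its first probe was on all 12, so the probes disagreed and the gene was read from the bright one. *Grem1* was not tested.

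The arrays carried the deletion they were labelled with, and they differed in more than genotype and depot. The *Sorl1* probe averaged 1.01 ± 0.13 (SD, n = 3) in WT and -3.33 ± 0.40 in Lr11-/- scWAT. In BAT it averaged 0.68 ± 0.55 and -2.96 ± 0.85 (limma adjusted p = 0.0063 and 0.0319). Replicate 1 of every group belonged, by the array titles, to another array series (the first) than replicates 2 and 3 (the second). In the first series the scWAT arrays shared a slide and the BAT arrays shared another, so depot and slide cannot be told apart there. The arrays of the second series were all on the same slide. Summed brown adipocyte markers (8 genes, including *Ucp1* and *Cidea*; the sum is of intensities relative to the 75th percentile) lay between 2083 and 2953 on the 6 BAT arrays. On Lr11-/- scWAT replicates 2 and 3 they were 2738 and 3008, in the BAT range or above it, against 270.1 on Lr11-/- scWAT replicate 1 and 3.24 to 193 on WT scWAT. The 6 adipocyte markers were well above background on all 12 arrays, and their sum was lowest on WT scWAT replicate 2 (393 against 1214 or more on the other 11). Skeletal muscle markers (10 genes) summed to 4380 on WT scWAT replicate 3 and 3858 on Lr11-/- scWAT replicate 1 but to 5.39 or less on the other 4 scWAT arrays. In BAT they summed to 1438 and 1076 on WT replicates 1 and 3 and to 771 on Lr11-/- replicate 1. On the other BAT arrays the sums were 1.22 to 2.40. The part of muscle in the comparisons was not tested. These are bulk tissues, so fewer cells of a type and less RNA per cell cannot be told apart.

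**Figure D1:**
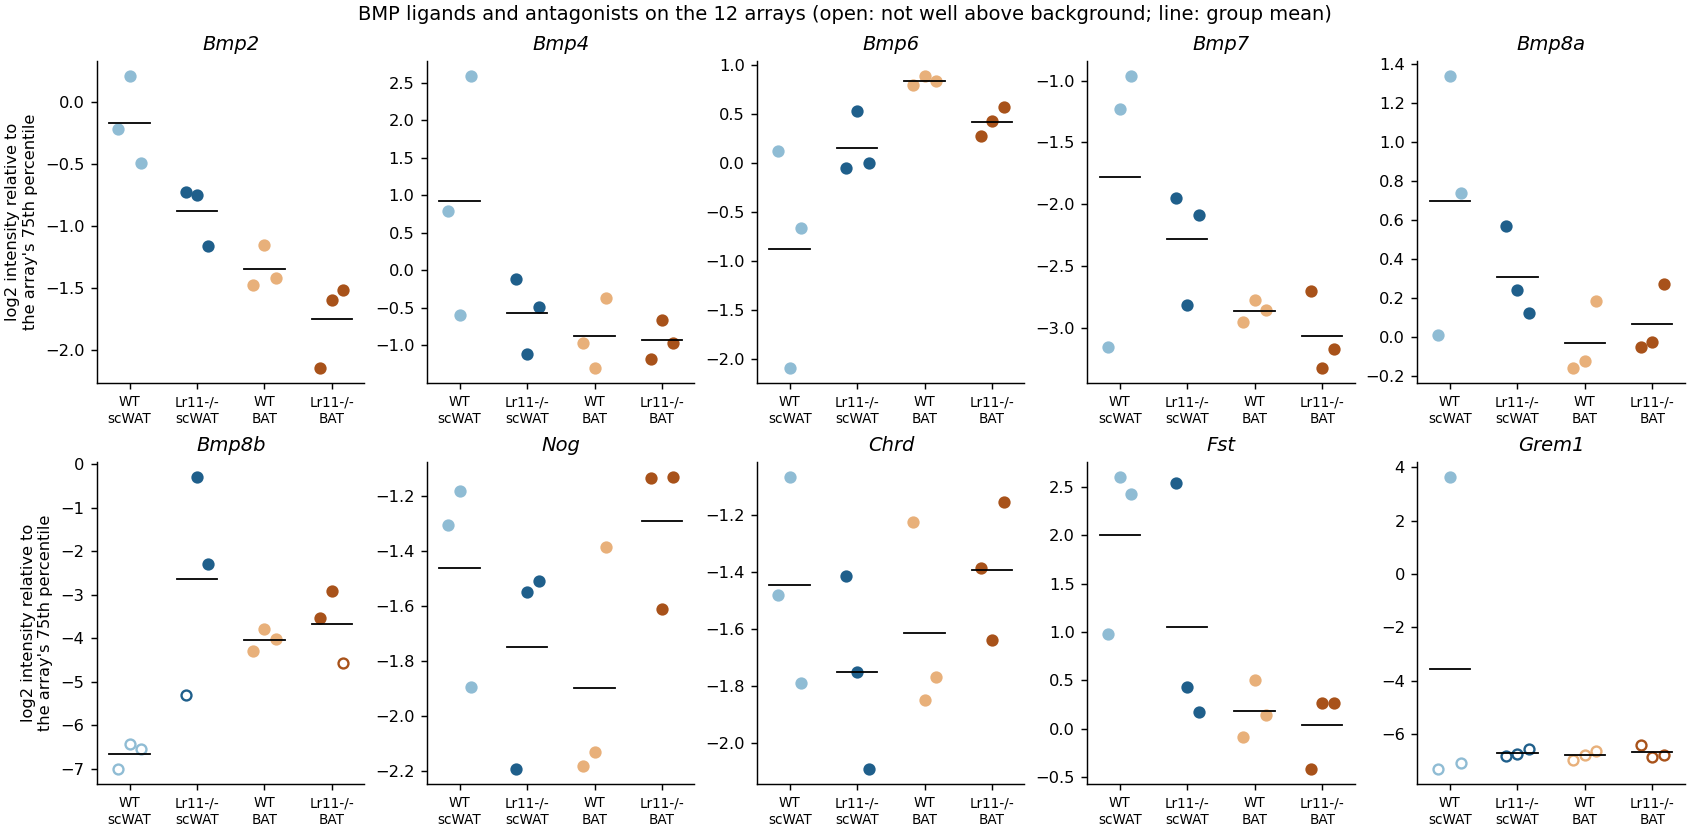
Level of each of the 10 genes on the 12 arrays (y axis, log2 intensity relative to the array's 75th percentile; each panel has its own scale) in the 4 groups (x axis), with replicates 1 to 3 from left to right, open points where the probe was not well above background and a line at the group mean. The group means of *Bmp2* step down from WT scWAT to Lr11-/- BAT, with overlap between Lr11-/- scWAT and WT BAT. *Bmp8b* is open on all WT scWAT arrays and filled on 2 of 3 Lr11-/- scWAT arrays, and *Grem1* is filled on 1 array.

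The genotype comparison in scWAT asks which BMP genes differ where LR11 is lost in white fat. *Bmp8b*, the thermogenic ligand of brown adipocytes, was the member that passed the test, and it rose. Its levels were -7.01, -6.43 and -6.54 on the WT scWAT arrays (4.90, 5.13 and 6.14 intensity units) and -5.32, -0.29 and -2.29 on the Lr11-/- scWAT arrays (14.9, 354 and 76.7 units). The groups did not overlap, but the Lr11-/- arrays were far apart (SD 2.53 against 0.31 in WT), and replicate 1 was not well above background. With WT scWAT not well above background on any array, the change in the group mean is given as a bound. From the processed signals it was at least 4.6-fold higher in Lr11-/- (limma, measured log2 difference 4.03, SE 0.97, adjusted p = 0.0449). The bound is carried by Lr11-/- replicates 2 and 3, and another background correction gave a smaller difference, as given below. *Bmp8b* entered the test only because its probe was well above background on all 3 WT BAT arrays. Of the tested probes 5.27% passed in this comparison and 3.4% passed and were higher in Lr11-/-; 1 of the 9 tested members did so. Without scaling of the arrays the calls turned from 64.5% higher to 36.2% higher over all probes, and *Bmp8b* was still called.

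The *Bmp8b* call stood near the threshold with all 12 arrays and depended on which arrays were fitted. In the first array series neither scWAT array read *Bmp8b* well above background, and in the second the measured difference was 5.20. Leaving out 1 array kept the call in 2 of 12 cases, without WT scWAT replicate 3 (4.09, adjusted p = 0.0424) and without Lr11-/- scWAT replicate 1 (5.37, adjusted p = 0.000817). Over all probes these 2 fits called 4617 and 6371 of 32121, against 1692 with all arrays. In the other 10 fits the adjusted p was between 0.0513 and 0.185. There the difference stayed at 4.03 without each BAT array, lay between 3.85 and 4.15 without WT scWAT replicate 1 or 2 or Lr11-/- scWAT replicate 3, and was 2.86 without Lr11-/- scWAT replicate 2. From the median signals with normexp correction, in place of the processed signals, the difference was 1.47 (adjusted p = 0.115). With only the scWAT arrays in the fit, the BAT arrays gave no part of the estimate of spread. The limma adjusted p for *Bmp8b* was then 0.315, and 0 of 32121 probes were called. The 2 arrays with high *Bmp8b* were the scWAT arrays with BAT-range brown adipocyte markers; on them *Ucp1* stood at 9.75 and 10.05, against 9.45 to 10.07 on the BAT arrays and 4.39 on Lr11-/- scWAT replicate 1. The list did not move as one: the Lr11-/- scWAT mean was the higher one for 6 of its 8 genes, 3 of them called. *Zic1*, a transcription factor of classical brown fat, stood at -3.79 and -3.00 on these 2 arrays, against -0.71 to 1.49 on the BAT arrays and -6.86, 0.76 and 0.46 on WT scWAT. The part of these markers in the *Bmp8b* difference was not tested.

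*Bmp8a*, which codes for a closely related ligand, was read at 0.01, 1.34 and 0.74 in WT scWAT and at 0.57, 0.24 and 0.12 in Lr11-/- scWAT. The groups overlapped, and its difference of -0.39 (95% confidence interval -1.07 to 0.29, limma adjusted p = 0.442) did not pass. The *Bmp8a* probe was well above background on all 12 arrays and the *Bmp8b* probe on 7. Readings of close paralogs are uncertain where a probe can bind both, which was not tested.

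*Bmp2*, a ligand of early adipocyte differentiation, was lower on all Lr11-/- arrays than on all WT arrays of the same depot. WT scWAT read -0.22, 0.22 and -0.49, and Lr11-/- scWAT -0.72, -0.75 and -1.16. In BAT they were -1.47, -1.15 and -1.42 in WT and -2.14, -1.60 and -1.51 in Lr11-/- mice. All BAT arrays of a genotype lay below its scWAT arrays. Over all tested probes, 20.4% had no overlap between genotypes in scWAT and 12% in BAT. Between depots 40.2% had none in WT and 23.2% in Lr11-/- mice. The genotype differences were -0.71 in scWAT (SE 0.26, adjusted p = 0.109) and -0.41 in BAT (SE 0.26, adjusted p = 1), and neither passed in limma. In the order of the means, Lr11-/- scWAT and WT BAT were the neighbours whose arrays overlapped.

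*Bmp4*, which commits precursors to the adipocyte lineage, was scattered in WT scWAT at 0.79, -0.60 and 2.59, and lay at -0.11, -1.11 and -0.49 in Lr11-/- scWAT. The groups overlapped, and the difference of -1.50 (SE 0.64) gave an adjusted p of 0.162. The highest array, WT scWAT replicate 3, was also the one with the highest sums of mesothelial (25.6 against 0.397 or less elsewhere) and skeletal muscle markers; their part was not tested. Without it the difference was -0.67.

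*Bmp6*, a ligand also known from iron metabolism, had a higher mean in Lr11-/- scWAT. It stood at 0.12, -2.09 and -0.66 in WT and at -0.05, 0.53 and -0.0016 in Lr11-/- scWAT, with overlap through WT replicate 1. The difference was 1.04 (SE 0.45, adjusted p = 0.163), was called without WT scWAT replicate 1 (1.54, adjusted p = 0.0316) and was 0.43 without WT scWAT replicate 2, the array with the low adipocyte marker sum. The fit without WT scWAT replicate 1 called 4409 of 32121 probes.

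*Bmp7*, the ligand tied to brown fat formation, was read at -3.16, -1.23 and -0.96 in WT and -1.95, -2.81 and -2.09 in Lr11-/- scWAT. The array series disagreed on it, with a difference of 1.20 in the first and -1.36 in the second; over all arrays it was -0.50 (SE 0.49, adjusted p = 0.54). It was called lower in Lr11-/- scWAT in the second series alone (adjusted p = 0.0234) and without WT scWAT replicate 1 (-1.19, adjusted p = 0.0334). Over all probes these fits called 7259 and 4409 of 32121. Leaving out WT scWAT replicate 3 gave -0.09, leaving out WT scWAT replicate 2 gave -0.23, and leaving out Lr11-/- scWAT replicate 2 gave -0.24.

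Among the antagonists, *Fst*, which codes for follistatin, was likewise split by array series. It stood at 0.98, 2.61 and 2.43 in WT and 2.54, 0.43 and 0.18 in Lr11-/- scWAT, so Lr11-/- replicate 1 lay among the WT arrays and the other 2 below all of them. The difference was 1.56 in the first series and -2.21 in the second, and -0.96 over all arrays (SE 0.60, adjusted p = 0.33). Without Lr11-/- scWAT replicate 1, the array with the highest epithelial marker sum (15 against 2.46 or less elsewhere) and high muscle markers, *Fst* was called lower (-1.70, adjusted p = 0.0297). That fit called 6371 of 32121 probes.

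*Nog*, which codes for noggin, and *Chrd*, which codes for chordin, had small differences in scWAT. *Nog* lay at -1.30, -1.18 and -1.89 in WT and -2.19, -1.55 and -1.51 in Lr11-/-, a difference of -0.29 (95% confidence interval -0.97 to 0.39). *Chrd* lay at -1.48, -1.07 and -1.79 in WT and -1.41, -1.75 and -2.09 in Lr11-/-, a difference of -0.31 (-0.92 to 0.30). The groups overlapped for both genes, and neither passed (limma adjusted p = 0.571 and 0.499).

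*Grem1*, which codes for gremlin, was well above background on 1 of 12 arrays. It read 5530 intensity units on WT scWAT replicate 2 (level 3.65) and 3.67 to 5.22 units on the other 11 arrays (levels -7.32 to -6.42). No test was made. On the same array *Inhba*, the activin A chain, stood at 2.76 against -1.69 or less elsewhere. That array had the lowest adipocyte sum, and the highest sums of fibroblast and progenitor markers (8 genes; 1147 against 560 or less on the other 11 arrays) and of macrophage markers (165 against 57.5 or less). The part of these cells in the *Grem1* reading was not tested. All *Grem1* values here are single spots, and none was marked as an outlier.

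**Figure D2:**
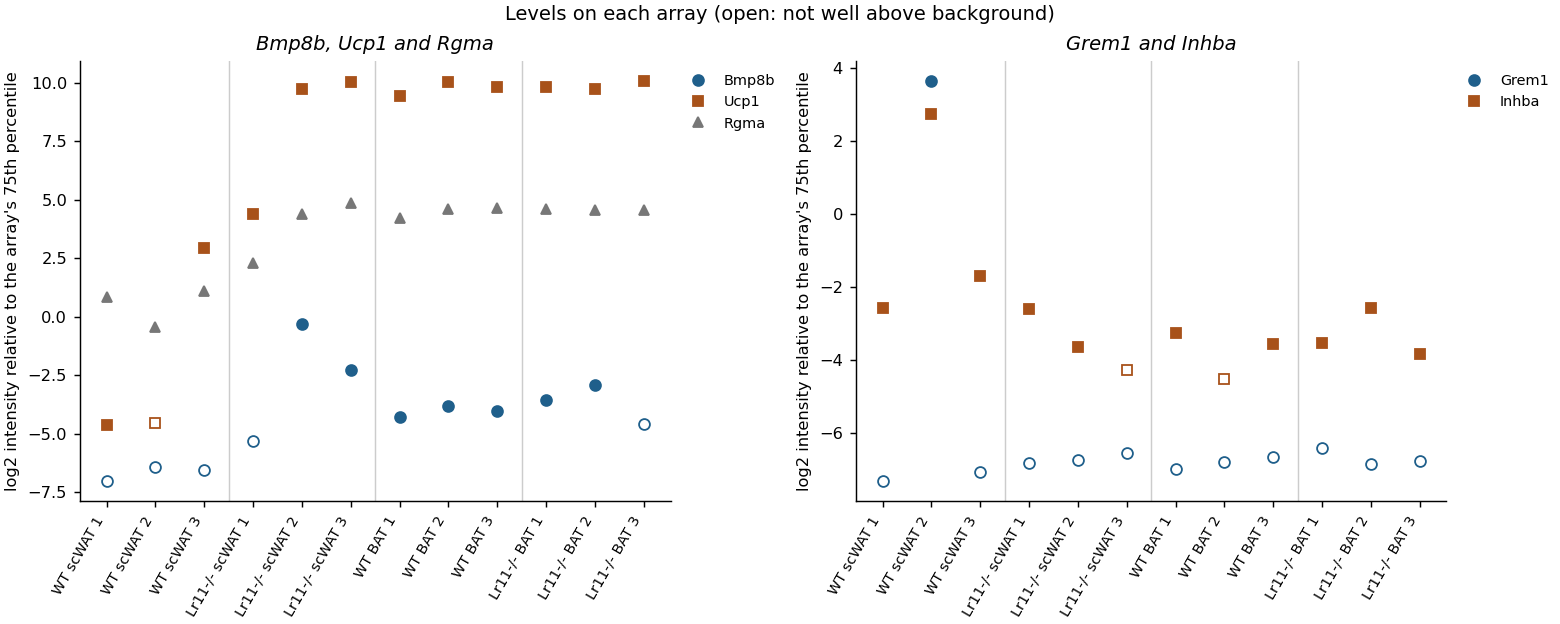
Levels (y axis, log2 intensity relative to the array's 75th percentile) of *Bmp8b*, *Ucp1* and *Rgma* (left) and *Grem1* and *Inhba* (right) on each of the 12 arrays (x axis), open where not well above background; heights are not comparable between genes. *Bmp8b* is highest on Lr11-/- scWAT replicates 2 and 3, where *Ucp1* is at 9.75 and 10.05, and both genes on the right are highest on WT scWAT replicate 2.

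Over the 9 tested members, 2 did not overlap between the genotypes in scWAT (*Bmp2* and *Bmp8b*), while 20.4% of all tested probes did not. Lower means in Lr11-/- scWAT were found for 7 of the 9, with a median difference of -0.39 against 0.04 over all tested probes. That is a description of a short list, and 8 of the 9 differences did not pass. In the same comparison all 8 fibroblast and progenitor markers had lower means in Lr11-/- scWAT (median -1.45), with *Dcn* and *Cd34* called lower, and their sums were 511 to 1147 on the WT and 130 to 285 on the Lr11-/- arrays. Their part in the members' differences was not tested.

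In BAT, *Bmp2* and *Bmp6* lay lower on all 3 Lr11-/- arrays than on all 3 WT arrays, but no member passed. None of the 9 passed in limma (smallest adjusted p = 1; 0 of 9 at an unadjusted p under 0.05), where 0.0187% of all tested probes passed and 2.12% had an unadjusted p under 0.05. The 2 genes without overlap compare with 12% of all tested probes. *Bmp6* stood at 0.80, 0.89 and 0.84 in WT BAT and at 0.27, 0.43 and 0.57 in Lr11-/- BAT, all 3 lower, with a difference of -0.42 (SE 0.45). Its WT BAT arrays were the tightest of its 4 groups (SD 0.05, against 1.13 in WT scWAT). An exact permutation test of 3 against 3 arrays cannot go below p = 0.1, which is the value for both genes.

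*Bmp8b* was well above background on all 3 WT BAT arrays, at -4.29, -3.79 and -4.02, and on 2 of 3 Lr11-/- BAT arrays, at -3.54, -2.91 and -4.57. The groups overlapped, and the difference was 0.36 (95% confidence interval -1.78 to 2.5). These readings are dim, at 16.8 to 58.7 intensity units, against 354 on Lr11-/- scWAT replicate 2.

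*Nog* had the smallest p of the members in BAT. It was read at -2.18, -2.13 and -1.38 in WT and at -1.13, -1.61 and -1.13 in Lr11-/- BAT, so 1 WT array lay among the Lr11-/- arrays. The difference was 0.61 (95% confidence interval -0.07 to 1.29, unadjusted p = 0.0756, limma adjusted p = 1). *Bmp4*, *Bmp7*, *Bmp8a*, *Chrd* and *Fst* had BAT differences between -0.21 and 0.22, and all overlapped.

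**Figure D3:**
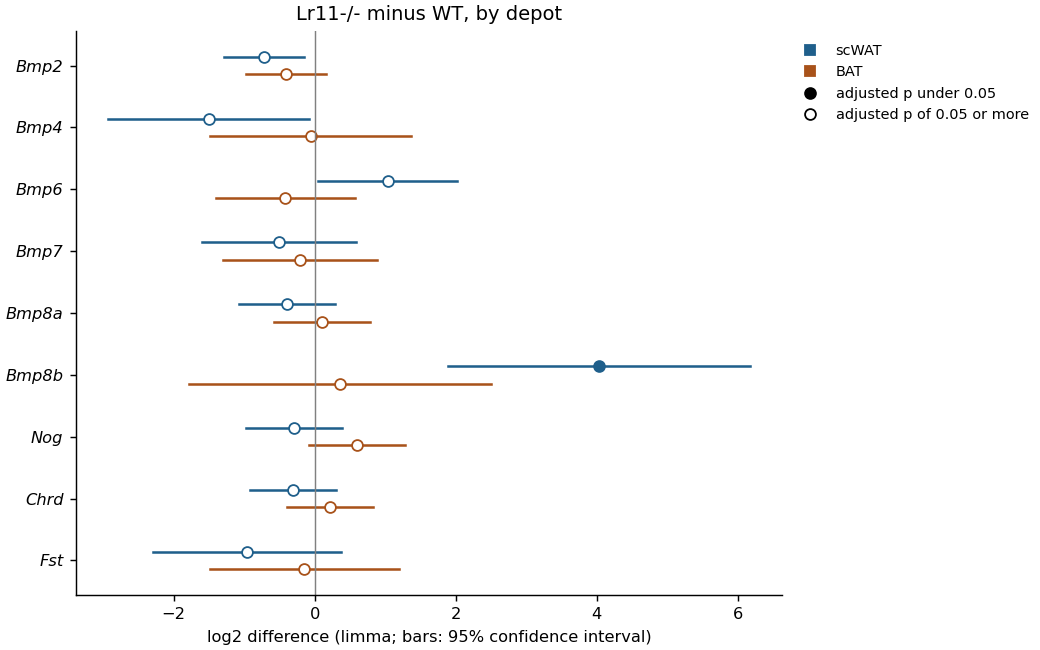
Log2 difference Lr11-/- minus WT (x axis) for the 9 tested genes (y axis) in scWAT and BAT, with limma's 95% confidence interval and filled points where the adjusted p was under 0.05. *Bmp8b* in scWAT, at 4.03, is the filled point.

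Whether the genotype effect differed between depots was tested directly. None of the 9 members passed, and neither did any tested probe (0%; limma, 3537 probes or 11% at an unadjusted p under 0.05). The smallest p values were those of *Bmp8b*, whose measured effect was larger in scWAT by 3.67 (unadjusted p = 0.0221, adjusted p = 0.409), and *Bmp6*, larger by 1.46 (0.06 to 2.85, unadjusted p = 0.0423, adjusted p = 0.441). With *Bmp8b* not well above background on any WT scWAT array, its values here are measured ones near background and not bounds. The WT BAT readings that alone let *Bmp8b* into the test also enter this difference, and higher ones raise it. The filter thus favoured a larger value, so the *Bmp8b* values here are a description. Without Lr11-/- scWAT replicate 1 the difference for *Bmp8b* was called (5.01, adjusted p = 0.0152), and in the second array series alone that for *Fst* was (-2.16, adjusted p = 0.0364). Over all probes these fits called 1193 and 890 of 32121.

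Between depots of WT mice, 3 of the 9 tested members passed, *Bmp6* higher and *Bmp2* and *Fst* lower in BAT, while 24.8% of all tested probes did (15.7% higher and 9.13% lower in BAT). Without scaling the share of calls higher in BAT went from 63.2% to 34.5% over all probes, and *Bmp8a* took the place of *Bmp6* among the called members. The groups did not overlap for *Bmp2*, *Bmp6* and *Fst*, against 40.2% of all tested probes. The *Bmp8b* groups were also apart, but this gene was tested only because of its WT BAT readings, so the filter favoured that difference. The WT scWAT arrays served both this comparison and the genotype comparison in scWAT, so the members' values in the 2 are not independent.

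*Bmp2* was lower in BAT by 1.18 on the log2 scale (SE 0.26, adjusted p = 0.0106). It was called without any one of the 12 arrays, with differences from -1.34 to -0.99. *Bmp6* was higher in BAT, by 1.72 (SE 0.45, adjusted p = 0.0202), with the WT BAT arrays between 0.80 and 0.89. Without any one WT BAT array the difference was 1.70 to 1.74 and no longer called (adjusted p from 0.0507 to 0.0663), and with only the WT arrays in the fit the adjusted p was 0.0888. The difference was 1.11 without WT scWAT replicate 2, still called (adjusted p = 0.0268).

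*Fst* was lower in BAT, at -0.09, 0.50 and 0.14 against 0.98 to 2.61 in WT scWAT. The difference of -1.82 (SE 0.60) lay at the threshold, with an adjusted p of 0.0496. It was no longer called in 9 of the 12 fits that left out an array, with a block for the array series (adjusted p = 0.0606) or for the slide (0.173), or with only the WT arrays in the fit (0.0545).

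The other members did not pass between the WT depots. In the processed signals *Bmp8b* was at least 1.74-fold higher in BAT than in scWAT (measured log2 difference 2.63, SE 0.97, limma adjusted p = 0.07). This is a description, since the WT BAT readings chose the gene for testing. Over its 22 refits the measured difference ran from 0.73 to 2.75 (adjusted p from 0.00641 to 0.322). Its adjusted p was under 0.05 with only the WT arrays in the fit (0.00876) or without Lr11-/- scWAT replicate 1 or 2. Those fits called 3920, 9521 and 6969 of 32121 probes, and the same filter had chosen *Bmp8b* for them. *Bmp4* (-1.81, adjusted p = 0.0626), *Bmp7* (-1.08, 0.13) and *Bmp8a* (-0.73, 0.104) had lower means in BAT with overlapping arrays. *Bmp7* was called lower in BAT without WT scWAT replicate 1 (-1.77, adjusted p = 0.00464), as was *Bmp8a* (-1.07, adjusted p = 0.0134), and *Bmp4* was without WT scWAT replicate 2 (-2.57, adjusted p = 0.0146). Over all probes these fits called 10231 and 5286 of 32121. *Nog* and *Chrd* differed by -0.44 and -0.17 and overlapped.

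Between depots of Lr11-/- mice none of the 9 passed in limma (smallest adjusted p = 0.374; 1 of 9 at an unadjusted p under 0.05), where 0.0405% of all tested probes passed and 9% had an unadjusted p under 0.05. *Bmp2* was the member whose groups did not overlap, against 23.2% of all tested probes, and its difference was -0.87 (SE 0.26). *Fst* lay at -0.42, 0.26 and 0.27 in Lr11-/- BAT. Lr11-/- scWAT replicates 2 and 3, at 0.43 and 0.18, were near those values, and replicate 1, at 2.54, was far above them. For *Bmp8b* the mean was lower in BAT by 1.05 in the measured values (SE 0.97), since its brightest arrays were those of Lr11-/- scWAT; without Lr11-/- scWAT replicate 2 this turned to 0.13.

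**Figure D4:**
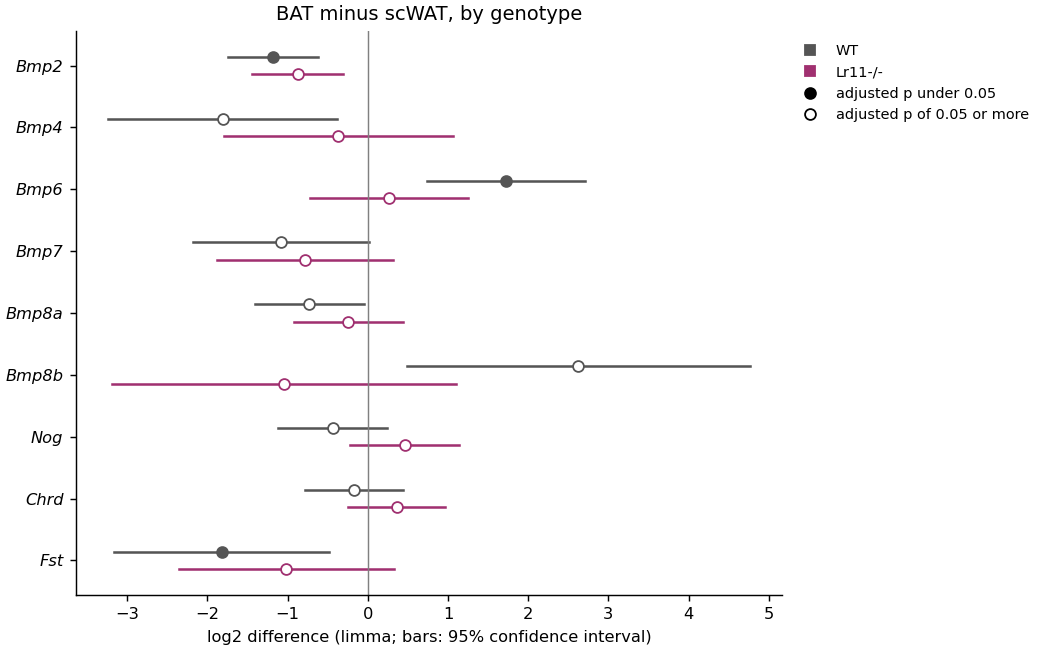
Log2 difference BAT minus scWAT (x axis) for the 9 tested genes (y axis) in WT and Lr11-/- mice, with limma's 95% confidence interval and filled points where the adjusted p was under 0.05. In WT mice *Bmp2* (-1.18) and *Fst* (-1.82) are filled and below 0 and *Bmp6* (1.72) is filled and above 0; in Lr11-/- mice no point is filled.

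The rest of the pathway was followed through 63 other genes, of which 51 were tested. In scWAT 3 were called between genotypes (5.88%, close to the 5.27% of all tested probes), and in BAT none (0 of 51). *Rgma*, a BMP co-receptor of the repulsive guidance molecule family, rose by 3.34 in Lr11-/- scWAT (SE 0.59, adjusted p = 0.0296). Its levels were 0.84, -0.44 and 1.11 in WT and 2.28, 4.38 and 4.86 in Lr11-/- scWAT, against 4.21 to 4.66 on the 6 BAT arrays. *Fstl3*, a secreted relative of follistatin that binds activins, decreased by 1.78 (SE 0.33, adjusted p = 0.0297), from 1.37, 1.06 and 1.49 in WT to -1.17, -0.10 and -0.15. The fibroblast and progenitor markers were lower in the same arrays, as given above, and their part was not tested. *Inhbe*, the activin E chain, rose by 0.84 (SE 0.21, adjusted p = 0.0499), at the threshold. With only the scWAT arrays in the fit 0 of 32121 probes were called, so none of these 3 genes was. Leaving out 1 array gave 3 to 6371 calls over all probes, and how these 3 genes fared there is not given here. None of the 11 receptors and 8 tested Smad target genes was called between genotypes in either depot, with median differences in scWAT of -0.44 and -0.18 against 0.04 over all tested probes.

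In WT mice 16 of these 51 genes were called between depots (31.4%, against 24.8% of all tested probes), 7 higher (13.7% against 15.7%) and 9 lower in BAT (17.6% against 9.13%). Among other ligands *Bmp5* (1.43) and *Gdf7* (0.99) were higher in BAT and *Bmp3* (-2.99) was lower. Of the activin chains *Inhbe* (1.39) was higher and *Inhbb* (-2.21) lower. The extracellular modulators had 2 higher, *Rgma* (3.98) and *Dand5* (1.33), and 5 lower. The lower ones were *Fstl3* (-3.01), *Nbl1* (-2.71) and *Fstl1* (-2.59), and, named after their values were seen, *Chrdl1* (-2.45) and *Bmper* (-1.70). The median of these 14 modulators was -0.77 against 0.07 over all tested probes. *Pcsk6* (1.99), a proprotein convertase, was higher and *Bmp1* (-2.14), a metalloproteinase that cleaves chordin, was lower in BAT. Of the receptors *Acvr1* (-0.90) was lower, and of the targets *Id1* (1.34) was higher. Their adjusted p values in limma ran from 0.00179 for *Fstl3* to 0.0423 for *Inhbb*. Fibroblast and progenitor markers (8 genes), which include *Dcn* and *Cd34*, summed to 511 to 1147 on the WT scWAT arrays and 118 to 152 on the WT BAT arrays; their part in these differences was not tested.

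Over the 12 arrays and 14710 genes with a tested probe, each member was set beside the genes whose levels followed it most closely. The points share arrays, series and depots, so this is a description. *Bmp8b* was followed by *Aqp8* (Pearson r = 0.93), *Ptrh2* (0.93) and *Orm3* (0.92). *Bmp8a* was followed by *Rack1* (0.97) and *Rps23* (0.96), which code for proteins of the ribosome. *Bmp2* went with *Exosc8* (0.97), *Etaa1* (0.96) and *Slc2a6* (0.96), and *Bmp4* with *Uaca* (0.97), *A830082N09Rik* (0.97) and *Serpinb1a* (0.95). *Bmp6* went with *Inka2* (0.98), *Fam161a* (0.97) and *Adra1d* (0.96), and *Bmp7* with *Ankrd13b* (0.93) and *Nt5e* (0.92). *Fst* was followed by *Ubald2* (0.97), *Trmt112* (0.96) and *4930426L09Rik* (0.96). The closest genes were less close for *Nog* (*Lbh*, 0.82; *Rbm27* and *Dhx9*, 0.80) and *Chrd* (*Zbtb45*, 0.88; *Armc7*, 0.84; *Clk2*, 0.82).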

How the data were processed

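The authors hybridised Cy3-labelled cRNA from each sample to a 1-colour Agilent mouse 8x60K array and extracted the spots with Agilent Feature Extraction 10.10, per the submitters' processing notes. The deposited values are processed intensity per spot, background-subtracted and spatially detrended by that software; the deposited value table held the same intensities (largest difference 0) and was not used. Probes were named through RefSeq accessions (GRCm38.p6 gene table), which matched 27235 of 55681 probes.

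Spots outside the controls were scaled by each array's 75th percentile (374 to 632 intensity units) and log2-transformed, outlier spots (128 to 181 per array) were dropped, and spots of a probe were averaged. No spot was saturated, and no member value was missing or imputed. Tested probes were fitted in limma 3.58.1 (R 4.3.3) with 4 group means over all 12 arrays, lmFit and eBayes, and Benjamini-Hochberg adjustment over all tested probes; calls had an adjusted p under 0.05. A gene was read from its tested probe with the highest mean. A bound sets the bright group's mean against the dim group's, each dim array raised to its lowest signal well above background. Genes named beside the members are the pathway genes called between genotypes, the 3 largest called each way per list between depots, and the 3 closest by correlation; some of these are not reported here.

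The fit was first tested on simulated data with known changes between Lr11-/- and WT scWAT. It called 10 of 50 changes of log2 size 1, 27 of 50 of size 2, 40 of 50 of size 3 and 44 of 50 of size 4. Each simulated probe had the same spread in all groups, unlike *Bmp8b* on these arrays. The members and lists were chosen with earlier results of these data known. Alternatives covered background correction, scaling, filtering, array series, slide, arrays fitted, eBayes settings and leaving out each array. Replicate numbers were given in accession order, so no samples were paired. With 3 arrays per group, their number limits the precision.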

Additional observations from a re-analysis of the deposited data

How the results depend on the processing

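The number of members called in scWAT between genotypes (1, *Bmp8b*) was 0 from median signals with normexp correction (a change of signal column as well; chosen after seeing the data, since the files hold no mean signal and the planned version was not run), 0 without a filter, 0 with a filter on all 12 arrays, which removes *Bmp8b*, 0 with only the arrays of the 2 groups, and 3 in the second array series alone (*Bmp7*, *Bmp8b* and *Fst*). Over all probes the second series alone called 7259 of 32121. The number of members ran from 0 to 2 with 1 array left out (3 to 6371 probes). Between WT depots the count (3) was 5 in the second series alone (8130 of 32121 probes called) and 1 to 5 with 1 array left out; it was 1 (*Bmp2*) without any one WT BAT array. For the difference of genotype effects (0) it was 1 in the second series alone (890 probes called, none with all arrays) and 0 to 1 with 1 array left out (0 to 1193 probes). In BAT between genotypes and in Lr11-/- mice between depots the count was 0 in every fit made. Apart from that filter, the causes were not tested.

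Of 824 refits of single members 769 kept direction and side of the threshold, 31 lost a call, 14 gained one and 10 turned, all from uncalled values. Many of the 824 could not turn. Another filter, other eBayes settings or leaving out an array of another group left the difference itself unchanged. Averaging a gene's tested probes repeated the main fit, since each tested member had 1 tested probe. The count of 769 was thus partly fixed in advance. In the second series alone *Nog* in scWAT was 0.0084 and *Bmp4* in BAT 0.023. With 1 array left out, the genotype difference in BAT ran from -0.27 to 0.20 for *Bmp4*, -0.0041 to 0.21 for *Bmp8a*, -0.025 to 0.81 for *Bmp8b* and -0.29 to 0.079 for *Fst*; that between WT depots for *Chrd* ran from -0.36 to 0.019, and that between Lr11-/- depots for *Bmp8b* from -2.39 to 0.13. Without scaling the median of all tested probes moved from 0.04 to -0.20 in scWAT between genotypes and from 0.07 to -0.25 between WT depots. The calls over all probes in scWAT (1692) ran from 3 to 6371 with 1 array left out, and were 151 without a filter, 838 without scaling, 911 with the slide as a block, 7259 in the second series alone and 0 with only the arrays of the 2 groups. Between WT depots (7970) they ran from 3276 to 10231, and were 3993 with the slide as a block and 3920 with only the WT arrays. No paired analysis was possible because the replicate numbers come from accession order. *Bmp8b* in WT scWAT and *Grem1* on 11 arrays lie near background, which limits what their readings show.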
